A study of Mus musculus with 12 samples.

Results

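The comparison described here sets BV-2 cells that received lipopolysaccharide and curcumin together against untreated BV-2 cells, the net state reached under both agents. BV-2 cells are an immortalised mouse line used as a model of microglia, the macrophages that live in brain tissue. Lipopolysaccharide (LPS) is a bacterial cell wall component sensed by Toll-like receptor 4, and curcumin is a polyphenol of turmeric. By the treatment label, 3 arrays belong to the LPS+curcumin group (100 ng/ml LPS and 20 µM curcumin) and 3 to the untreated group, 6 of the 12 arrays of the series. The other 6 arrays are 3 with LPS alone and 3 with curcumin alone at the same doses. Treatments lasted 6 h by the labels, which state no vehicle or time for untreated cells, so a vehicle effect and curcumin cannot be told apart. All groups are the same clonal line with no genetic change named. Nothing in the labels says that replicates came from separate cultures, so p-values measure the spread between these arrays only, which may be technical.

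In macrophages and microglia, LPS acts through Toll-like receptors and adaptor proteins to free the transcription factor NF-κB from its inhibitors, which turns on cytokines, chemokines and the inhibitors themselves. A separate branch of the same receptor leads through interferon regulatory factors to type I interferon and, in turn, to interferon-stimulated genes. Curcumin is an electrophile known to engage the oxidative stress factor NRF2 and the heat shock and ATF4 stress responses. The members described are therefore ordered from secreted ligands to their regulators, receptors and lineage genes, and then to the stress and metabolic programmes.

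The 6 promoters below belong to genes that were higher with both agents in each branch, and they show the letters by which those branches are usually recognised. Each run is the RefSeq window of GRCm38.p6 from 250 bases before to 50 bases after the start of transcription, read 5′ to 3′ along the gene. Capitals mark the letters of an NF-κB site (GGG, 3 free letters, T, 1 free letter, CC) in Cxcl2, Cxcl10 and Nfkbia, an interferon-stimulated response element (GAAA, 2 free letters, GAAA) in Isg15, and a C/EBP-ATF response element (TGATGNAA) in Trib3 and Chac1, searched on both strands, where overlapping matches run together. Each window was marked for its own element only, so other matches stay in lower case, such as the interferon element letters in Cxcl10.
Cxcl2, chr5:90903649-90903948, plus strand: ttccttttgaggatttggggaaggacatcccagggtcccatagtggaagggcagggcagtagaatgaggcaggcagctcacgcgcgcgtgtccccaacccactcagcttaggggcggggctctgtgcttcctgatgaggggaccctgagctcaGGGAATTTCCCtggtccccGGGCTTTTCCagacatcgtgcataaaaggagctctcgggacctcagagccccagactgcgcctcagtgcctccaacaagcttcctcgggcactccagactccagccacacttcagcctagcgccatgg
Cxcl10, chr5:92348840-92349139, minus strand: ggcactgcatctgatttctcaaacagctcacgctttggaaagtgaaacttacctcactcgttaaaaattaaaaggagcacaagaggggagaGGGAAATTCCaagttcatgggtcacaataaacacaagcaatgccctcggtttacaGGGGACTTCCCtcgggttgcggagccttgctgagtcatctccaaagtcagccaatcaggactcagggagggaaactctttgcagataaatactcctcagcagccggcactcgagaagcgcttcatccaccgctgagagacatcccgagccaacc
Nfkbia, chr12:55492598-55492897, minus strand: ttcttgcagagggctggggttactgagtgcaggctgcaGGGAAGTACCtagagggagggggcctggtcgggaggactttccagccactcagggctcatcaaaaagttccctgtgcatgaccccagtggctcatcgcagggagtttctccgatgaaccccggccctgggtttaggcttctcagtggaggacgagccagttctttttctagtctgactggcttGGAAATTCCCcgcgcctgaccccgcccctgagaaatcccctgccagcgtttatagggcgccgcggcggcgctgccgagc
Isg15, chr4:156200769-156201068, minus strand: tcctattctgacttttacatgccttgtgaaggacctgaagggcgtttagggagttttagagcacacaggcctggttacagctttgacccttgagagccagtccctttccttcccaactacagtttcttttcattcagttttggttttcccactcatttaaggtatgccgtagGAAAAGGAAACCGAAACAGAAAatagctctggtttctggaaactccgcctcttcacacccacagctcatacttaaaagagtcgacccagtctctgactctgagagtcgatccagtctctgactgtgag
Trib3, chr2:152344011-152344310, minus strand: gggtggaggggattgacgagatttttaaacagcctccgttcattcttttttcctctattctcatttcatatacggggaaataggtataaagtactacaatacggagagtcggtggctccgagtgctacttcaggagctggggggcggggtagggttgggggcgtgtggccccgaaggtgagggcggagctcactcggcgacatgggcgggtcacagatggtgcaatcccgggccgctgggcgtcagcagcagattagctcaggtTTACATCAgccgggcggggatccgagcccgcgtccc
Chac1, chr2:119350992-119351291, plus strand: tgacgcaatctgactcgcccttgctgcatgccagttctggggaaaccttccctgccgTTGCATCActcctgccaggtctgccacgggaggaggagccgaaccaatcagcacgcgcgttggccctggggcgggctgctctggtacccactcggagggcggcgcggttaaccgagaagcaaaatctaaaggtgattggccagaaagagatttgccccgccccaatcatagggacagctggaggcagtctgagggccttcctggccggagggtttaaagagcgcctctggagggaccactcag

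These 6 were picked after their values and matches were seen. The NF-κB letters are common, with a match in 17.4% of all 32851 promoter windows, against 3.44% for the interferon element and 3.97% for the C/EBP-ATF element. Among cytokine, chemokine and NF-κB list members that were higher on every scaling described below, 5 of the 13 with a window held the NF-κB letters (Cxcl10, Cxcl2, Cxcl9, Il6 and Nfkbia), beside 23.8% of all tested genes with a window. For interferon-stimulated genes 4 of 6 held the interferon element (Ifit1, Ifit3, Isg15 and Rsad2), beside 3.76% of tested genes. For the ATF4 list 3 of 6 held the C/EBP-ATF letters (Chac1, Nupr1 and Trib3), beside 2.94%. The lists group genes by branch and their members not called were not counted, so these shares are no test of the treatment.

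Values are log2 signal relative to the 75th percentile of each array's spots, so 0 is that percentile and a step of 1 is a doubling. They are listed for replicates 1, 2 and 3 in that order. Fold changes are log2 differences ± the standard error of one limma fit with 3 arrays per group and the slide as a block, and a gene was called at an adjusted p below 0.05. Each array had between 58.0% and 65.9% of its spots well above background, no spot was saturated, and 12 of 12 measured markers of microglia and macrophages were well above background on all untreated arrays. With both agents 10 of those 12 stayed so on all 3 arrays. The defining markers of astrocytes (Gfap, Aldh1l1), neurons (Snap25, Map2), fibroblasts (Col1a1, Col3a1) and oligodendrocytes (Mog, Olig1) were above background on none of the 6 arrays.

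Replicate 1 of the LPS+curcumin group did not resemble replicates 2 and 3, so counts are also given without it. Over all tested genes it correlated on average at 0.976 with untreated, 0.982 with LPS and 0.950 with curcumin arrays. For replicates 2 and 3 the averages were 0.984 and 0.985 with curcumin but 0.946 and 0.928 with untreated cells. On replicate 2, 1594 spots bore an outlier mark and were dropped, against 163 or fewer elsewhere. Where a gene lacks a replicate 2 value for that reason, this is said beside it. In bulk RNA, fewer cells and less RNA per cell cannot be told apart.

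Of 19319 genes and transcripts tested, 5118 (26.5%) were called higher and 1678 (8.69%) lower with both agents than in untreated cells. Without LPS+curcumin replicate 1, 9167 (47.5%) were higher and 2983 (15.4%) lower. The split between directions depended on the scaling. The 75th percentile fell against the spike-in controls by 0.37, 1.45 and 1.29 on slides 1, 2 and 3. The median of all genes was 0.34 on the 75th percentile scale, 0.25 on the scale of always-detected probes, -0.01 after quantile scaling, -0.46 on the median scale and -0.69 on the spike-in scale. The calls were 2244 higher and 2703 lower after quantile scaling, 1731 and 7535 on the median scale, and 1277 and 8381 on the spike-in scale. A total of 1006 genes (5.21%) were called higher and 1578 (8.17%) lower on all 5 scalings. Without replicate 1 these were 1571 (8.13%) and 2963 (15.3%), and 975 and 1535 genes were in both sets. The total of 6796 calls shrank to 861 with only the 6 arrays compared in the fit, to 64 after normexp background correction, and to 19 without replicate 2 of all groups. The counts on all 5 scalings became 2 higher and 1 lower with only those 6 arrays. Counts on all 5 scalings are the ones given first below.

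**Figure D1:**
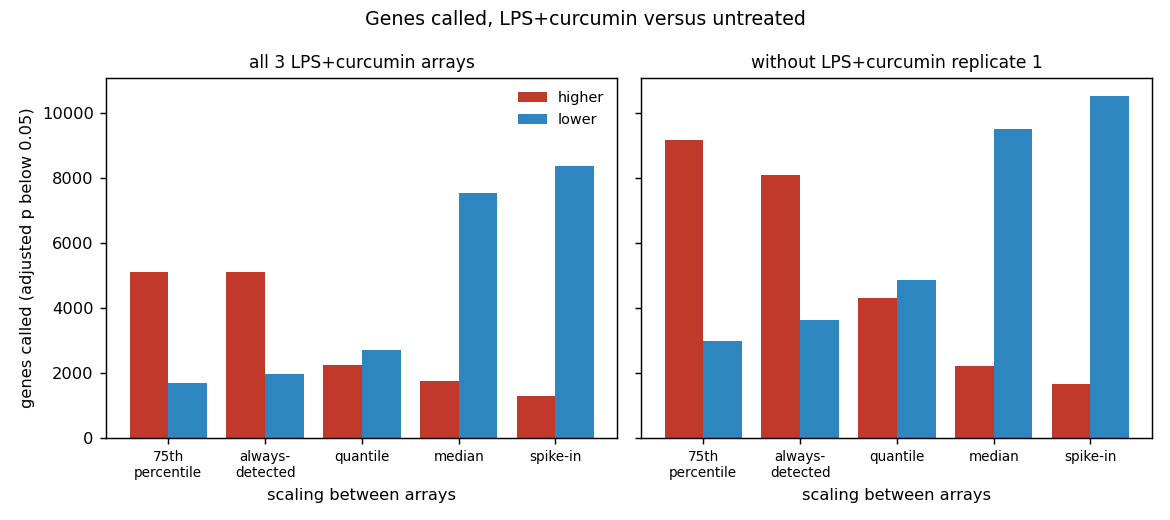
Bars give the number of genes called higher (red) or lower (blue) with both agents than in untreated cells on each of 5 scalings between arrays, with all 3 LPS+curcumin arrays on the left and without replicate 1 on the right. Higher calls fell from 5118 on the 75th percentile to 1277 on the spike-in scale while lower calls rose from 1678 to 8381.

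Of 21 tested cytokines and mediators, 14 were higher with both agents than in untreated cells on the 75th percentile scale, beside 26.5% of all genes, and 7 were not called. On all 5 scalings 8 were higher and none lower, beside 5.21% and 8.17% of all genes. Against LPS alone 17 were lower, beside 8.6% of all genes. The list's median log2 fold change was 2.17, beside 0.34 for all genes. The median was 2.36 on slide 1, against 1.30 and 1.71 on slides 2 and 3. Without replicate 1 the count was 15 higher and 1 lower (7 and 1 by all 5 scalings), beside 47.5% and 15.4% of all genes. The median was then 1.36.

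Tnf, the founding member of the tumour necrosis factor family, read 0.85, 0.37 and 0.23 in untreated cells and 5.28, 3.55 and 3.70 with both agents. All 3 treated arrays lay above all untreated ones, with replicate 1 highest. The fold change was 3.69 ± 0.24, or 12.9-fold (adjusted p = 0.000118), and 3.39 ± 0.18 without replicate 1. Il6, a pyrogenic cytokine, read -6.46, -6.32 and -5.88 against 0.86, -2.69 and -3.94, a wider spread within the treated group. Its fold change was 4.30 ± 0.87 (adjusted p = 0.00834) and 2.92 ± 0.41 without replicate 1. Il1b, the precursor of interleukin-1β, read -4.35, -5.28 and -6.05 against -0.05, -3.35 and -3.45. Its fold change of 2.95 ± 0.52 (adjusted p = 0.00535) became 2.17 ± 0.30 without replicate 1, where the call was lost on at least 1 scaling. The groups did not overlap for any of these cytokines. Of all 19319 genes, 4746 had every LPS+curcumin array above every untreated one, and 2017 had every one below.

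Acod1, which makes the antimicrobial metabolite itaconate, read 0.87, -0.12 and 0.52 against 7.49, 4.68 and 2.69 and rose by 4.53 ± 0.74 (adjusted p = 0.00408), or 3.45 ± 0.46 without replicate 1. Csf3, the granulocyte colony-stimulating factor, was not well above background on any untreated array and read -0.82, -4.29 and -3.71 with both agents. It was at least 21.9-fold higher (adjusted p = 0.000590). Edn1, the vasoconstrictor endothelin-1, read -6.80, -6.46 and -6.95 against -4.45, -3.74 and -3.09 and rose by 2.98 ± 0.35 (adjusted p = 0.00127). Ptges, the inducible prostaglandin E synthase, rose by 2.38 ± 0.26 (adjusted p = 0.00151), with values of -0.79 and 0.11 on LPS+curcumin replicates 1 and 3 and none on replicate 2.

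The inducible enzymes were less settled. Ptgs2, the inducible cyclooxygenase, read -4.35, -4.29 and -3.98 against 0.17, -2.75 and -3.53, so replicate 1 was far above the other treated arrays. Its fold change was 2.17 ± 0.68 (adjusted p = 0.0359). The call was lost without LPS+curcumin replicate 2 (adjusted p = 0.0609), without untreated replicate 1 (0.117) and without untreated replicate 2 (0.108), and on the spike-in scale without LPS+curcumin replicate 1 the value turned to -0.22. Nos2, the inducible nitric oxide synthase, read -9.38, -9.57 and -9.66 against -5.36, -8.68 and -7.96 and was well above background on replicate 1 alone, so the rise can only be given as at least 1.05-fold (adjusted p = 0.0169). That call was lost without untreated replicate 1 (adjusted p = 0.0577) or untreated replicate 3 (0.0583).

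Of 16 chemokines tested, 5 were higher on all 5 scalings (Ccl4, Ccl5, Cxcl2, Cxcl9 and Cxcl10) and none lower, and 9 were higher on the 75th percentile scale, beside 5.21% and 26.5% of all genes, with a list median of 1.19. Without replicate 1 the counts were 10 higher and 1 lower, beside 47.5% and 15.4% of all genes. Cxcl2, a neutrophil attractant, was not well above background in untreated cells and read -0.35, -0.07 and 0.02 with both agents, the narrowest treated spread of the chemokines named. It was at least 154-fold higher (adjusted p = 1.56e-05). Ccl5, which attracts T cells and monocytes, read 0.70, 0.50 and 0.18 against 7.61, 6.01 and 6.23 and rose by 6.16 ± 0.28, or 71.3-fold (adjusted p = 2.53e-05). Cxcl10, an interferon-inducible attractant of T cells, read -1.74, -1.82 and -1.40 against 5.20, 3.82 and 3.86 and rose by 5.95 ± 0.31, or 61.7-fold (adjusted p = 4.84e-05).

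Ccl4, an attractant of monocytes, read 4.27, 3.48 and 4.53 against 7.03, 5.55 and 6.92 and rose by 2.41 ± 0.28 (adjusted p = 0.00131). Ccl2, the main monocyte attractant, overlapped between the groups at 4.75, 3.79 and 4.45 against 5.81, 3.34 and 4.93. Its fold change of 0.36 ± 0.39 did not pass the test (adjusted p = 0.475). Without replicate 1 it was -0.08 ± 0.34, but -1.41 on the spike-in scale, where Ccl2 was called lower (adjusted p = 0.00489). In LPS alone Ccl2 stood 3.90 ± 0.39 above untreated cells, so the level with both agents differed from LPS by -3.54 ± 0.39 (LPS+curcumin minus LPS, adjusted p = 0.00129).

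**Figure D2:**
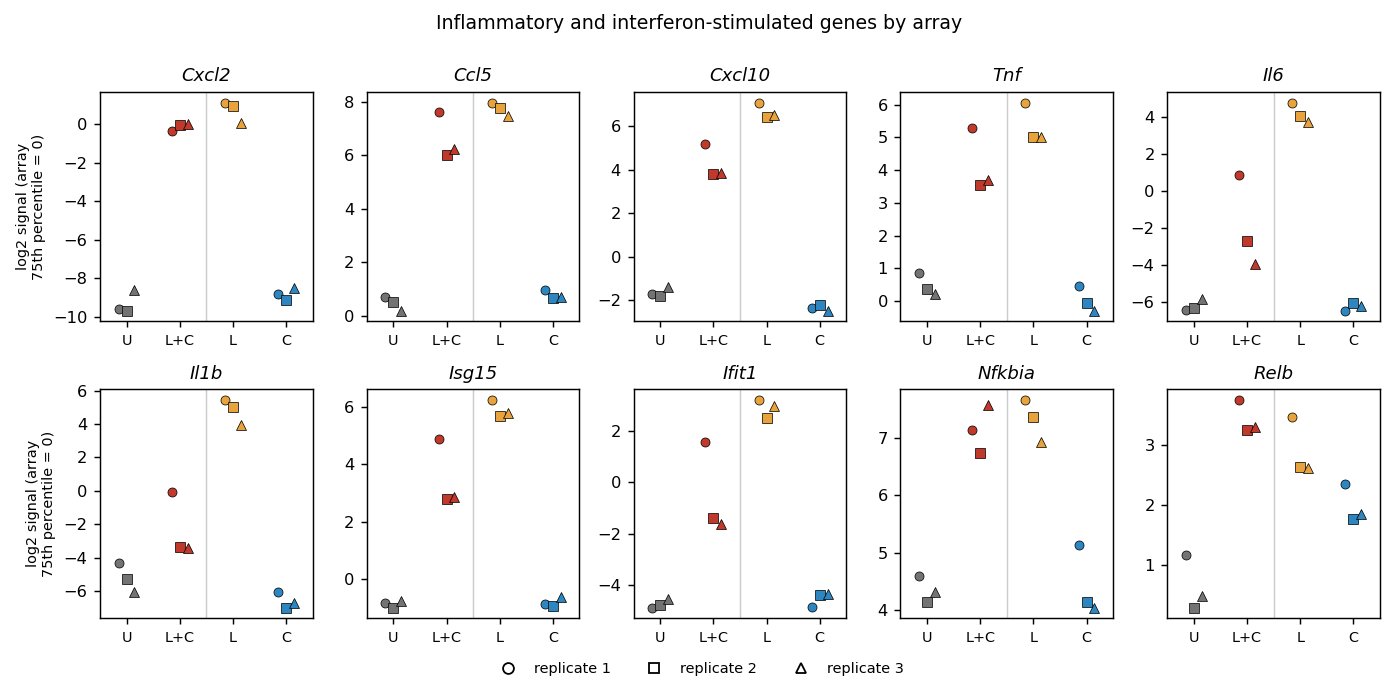
Each panel shows 1 gene, with log2 signal relative to the array's 75th percentile on the vertical axis and the groups untreated (U), LPS+curcumin (L+C), LPS (L) and curcumin (C) along the horizontal axis; symbols mark replicates 1 to 3. Cxcl2, Ccl5, Cxcl10 and Tnf lay above the untreated arrays on all 3 LPS+curcumin arrays. Among the LPS+curcumin arrays, replicate 1 was highest for Ccl5, Cxcl10, Tnf, Il6, Il1b and Ifit1, but not for Cxcl2.

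Most tested genes of the NF-κB system were higher. Of 17 subunits and feedback genes, 6 were higher on all 5 scalings (Icam1, Nfkbia, Nfkbib, Nfkbiz, Relb and Traf1) and none lower, and 14 were higher on the 75th percentile scale, beside 5.21% and 26.5% of all genes; the median was 1.48. Without replicate 1 the counts were 14 higher and 1 lower, beside 47.5% and 15.4% of all genes, with a median of 1.24. Nfkbia, the inhibitor IκBα that NF-κB induces against itself, read 4.60, 4.14 and 4.31 against 7.15, 6.75 and 7.59 and rose by 2.82 ± 0.28 (adjusted p = 0.000696), 7.04-fold. Relb, a subunit of the alternative pathway, read 1.17, 0.27 and 0.48 against 3.76, 3.25 and 3.30 and rose by 2.80 ± 0.15 (adjusted p = 4.84e-05). Nfkbiz, a nuclear co-factor for secondary response genes, read -1.78, -2.01 and -1.97 against 2.14, 1.101 and 0.74 and rose by 3.25 ± 0.24 (adjusted p = 0.000212).

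Traf1, an adaptor of tumour necrosis factor receptors, read -4.61, -4.999 and -5.16 against 3.58, 0.35 and -0.16 and rose by 6.18 ± 0.64 (adjusted p = 0.000765), or 5.14 ± 0.24 without replicate 1, which was the highest treated array. Nfkb2, the precursor of the p52 subunit, read 0.64, 0.02 and 0.30 against 2.77, 1.89 and 1.84 and rose by 1.85 ± 0.18 (adjusted p = 0.000636), but was not called on every scaling. Of its 17 members, 9 were higher with both agents than with curcumin alone, beside 0.336% of all genes, and 9 were lower than with LPS alone, beside 8.6% of all genes. On the 75th percentile scale Relb was above both, by 0.53 ± 0.15 over LPS (adjusted p = 0.0323) and 1.45 ± 0.15 over curcumin (adjusted p = 0.00631). That percentile moved against the spike-ins, relative to untreated cells, by -0.37, -1.45 and -1.29 with both agents on slides 1, 2 and 3. With LPS it moved by -0.44, -0.45 and -0.88, so the small difference from LPS depends on the scaling.

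Values of the interferon-stimulated genes depended on replicate 1. Of 37 tested members, 6 were higher on all 5 scalings (Ifit1, Ifit3, Isg15, Isg20, Oasl1 and Rsad2), 14 on the 75th percentile scale, and none lower, beside 5.21% and 26.5% of all genes for the higher ones, with a median of 1.21. Within slides the median was 2.75, 0.47 and 0.59. Replicate 1 was above both other treated arrays for 34 of 37 members, beside 4886 of all 19319 genes. Without replicate 1, 16 members were higher and 10 lower, beside 47.5% and 15.4% of all genes, so the higher count was near the background share. On all 5 scalings 5 were higher in that fit, beside 8.13%, and the same 10 were lower on all 5 scalings (Eif2ak2, Ifi47, Ifih1, Ifit2, Igtp, Oas2, Oas3, Parp9, Trim30a and Usp18). The higher count ranged from 7 without untreated replicate 3 and 8 without untreated replicate 2 to 18 without LPS+curcumin replicate 3, and was 9 without untreated replicate 1.

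Isg15, a ubiquitin-like modifier, read -0.86, -1.02 and -0.79 against 4.90, 2.78 and 2.84, with the groups apart, as in 4746 of all 19319 genes with LPS+curcumin above. It rose by 4.40 ± 0.41 (adjusted p = 0.000560), or 3.75 ± 0.18 without replicate 1. Ifit1, which binds foreign RNA caps, read -4.87, -4.75 and -4.53 against 1.58, -1.37 and -1.61 and rose by 4.25 ± 0.65 (adjusted p = 0.00326), or 3.20 ± 0.25 without replicate 1. Oasl1, a regulator of interferon translation, read 2.49, 2.49 and 3.01 against 6.45, 5.14 and 5.28 and rose by 2.96 ± 0.30 (adjusted p = 0.000765). Isg20, an exonuclease, read -2.72, -3.05 and -2.97 against -0.48, -0.51 and 0.16, a treated group with replicate 1 in its range, and rose by 2.63 ± 0.23 (adjusted p = 0.000435). Against LPS alone all 37 members were lower with both agents, beside 8.6% of all genes, and LPS alone gave a list median of 5.07 over untreated cells. That comparison and the one with untreated cells share the LPS+curcumin arrays.

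Of 13 tested IRF and STAT factors, 7 were lower on all 5 scalings (Irf2, Irf3, Irf5, Irf8, Stat5a, Stat5b and Stat6), beside 8.17% of all genes, and none was higher on all 5. With the 75th percentile alone, 2 were higher, 7 lower and 4 not called, beside 26.5% higher and 8.69% lower of all genes. The lower count was 7 without replicate 1 too, and 3 without LPS+curcumin replicate 2 or untreated replicate 2 or 3. For Stat5b, probes of the gene were called in opposite directions, and for Irf3 the arrays of the groups overlapped. Irf8, a factor that defines the macrophage lineage, read 4.16, 4.10 and 4.26 against 2.82, 2.05 and 1.77 with a fold change of -1.96 ± 0.25 (adjusted p = 0.00172). Irf2, a repressor of interferon genes, read -0.68, -1.17 and -1.21 against -1.59, -2.59 and -2.82, with a fold change of -1.32 ± 0.21 (adjusted p = 0.00382). Stat5a, a cytokine signal transducer, read 1.45, 1.03 and 0.91 against 0.58, -0.67 and -0.25, with a fold change of -1.24 ± 0.21 (adjusted p = 0.00455).

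Irf7, the amplifier of type I interferon, read -1.79, -1.83 and -1.87 against 0.71, -1.52 and -1.32. Its fold change of 1.12 ± 0.42 did not pass (adjusted p = 0.0625). Without replicate 1 it was 0.46 ± 0.16 and passed on the 75th percentile scale (adjusted p = 0.0348). In that fit Irf7 was called in the opposite direction on other scales. It was -0.60 on the median scale (adjusted p = 0.0124) and -0.87 on the spike-in scale (adjusted p = 0.0101). Irf1, an early interferon regulator, read 2.38, 1.99 and 1.54 against 4.54, 2.62 and 1.92, so the groups overlapped, with a fold change of 1.05 ± 0.35 (adjusted p = 0.0450). It lost its call without LPS+curcumin replicate 1 (0.58 ± 0.24, adjusted p = 0.0646) and without LPS+curcumin replicate 2 (adjusted p = 0.0731). The call was also lost without any 1 untreated array (adjusted p = 0.144, 0.106 and 0.0760 without replicates 1, 2 and 3). On the spike-in scale without LPS+curcumin replicate 1 its value was -0.75, called lower (adjusted p = 0.0287).

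Receptors and adaptors of the Toll-like family were more often lower. Of 21 tested, 6 were lower on all 5 scalings (Cd180, Irak4, Ticam2, Tlr1, Tlr4 and Tlr7) and none higher, beside 8.17% and 5.21% of all genes. Without replicate 1 these were 12 and none, beside 15.3% and 8.13% of all genes. On the 75th percentile scale 3 were higher and 8 lower, beside 26.5% and 8.69% of all genes. The lower count there was 4 without LPS+curcumin replicate 2, untreated replicate 2 or untreated replicate 3, and 5 without LPS+curcumin replicate 3. Tlr4, the receptor for LPS, read 0.33, 0.14 and -0.10 against -1.07, -1.84 and -2.96, with the groups apart, as in 2017 of all 19319 genes with LPS+curcumin below. Its fold change was -2.08 ± 0.37 (adjusted p = 0.00549). Curcumin alone stood at -2.25 ± 0.37 and LPS alone at -0.95 ± 0.37 against the same untreated arrays. Tlr7, an endosomal sensor of single-stranded RNA, read 1.94, 2.04 and 1.996 against 0.76, -0.71 and -0.26, with a fold change of -2.06 ± 0.28 (adjusted p = 0.00207).

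Tlr1, a partner of Tlr2, read -0.13, -0.43 and -0.64 against -0.74, -3.01 and -3.70, so replicate 1 lay just below the untreated arrays and replicates 2 and 3 well below them (fold change -2.08 ± 0.42, adjusted p = 0.00820). Ticam2, the adaptor TRAM that links Tlr4 to the interferon branch, read -4.61, -4.57 and -4.63 against -6.27, -7.59 and -6.07 (fold change -2.04 ± 0.34, adjusted p = 0.00450), and with normexp background correction its value was 0.27 with no call. Tlr2, which senses bacterial lipoproteins, read 4.25, 3.45 and 3.10 against 5.68, 2.66 and 1.90, and its arrays fell on both sides of the untreated ones. The fold change was -0.19 ± 0.48 (adjusted p = 0.773) with replicate 1 and -0.97 ± 0.19 without it (adjusted p = 0.00259).

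Chemokine and chemoattractant receptors split evenly. Of 12 tested, 4 were higher (Ccr7, Ccrl2, Cmklr1 and Fpr2) and 4 lower (among them Cx3cr1, Cxcr4 and Gpr183) on all 5 scalings, with and without replicate 1. The shares of all genes were 5.21% and 8.17%, or 8.13% and 15.3% without replicate 1. Ccrl2, a non-signalling receptor that presents chemerin, read -3.53, -4.24 and -4.19 against 1.72, 0.22 and 1.22 and rose by 5.04 ± 0.20, or 32.9-fold (adjusted p = 1.56e-05). Ccr7, the lymph node homing receptor, was not well above background in untreated cells and was at least 1.98-fold higher (adjusted p = 0.000426), with 1 of 3 treated arrays well above background. Gpr183, a receptor for oxysterols, had the lowest fold change of the genes named by size, 2.61, 1.94 and 1.38 against -2.01, -4.00 and -4.27, a difference of -5.40 ± 0.44 (adjusted p = 0.000333).

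Cxcr4, the receptor of Cxcl12, read -2.38, -3.52 and -3.65 in untreated cells, -5.44, -5.58 and -5.12 with both agents, -6.53, -7.45 and -6.99 with LPS and -2.89, -4.07 and -3.88 with curcumin. The fold change from untreated cells was -2.20 ± 0.28 (adjusted p = 0.00172). With both agents the level was 1.61 ± 0.28 above LPS (adjusted p = 0.00580) and differed from curcumin by -1.77 ± 0.28 (adjusted p = 0.0421), so it lay between the single agents.

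The identity genes of microglia and macrophages fell in part. Of 28 tested members, 10 were lower on all 5 scalings (among them Cx3cr1, Gpr34, Irf8, Mertk, P2ry12, P2ry13, P2ry6, Runx1 and Tmem119), beside 8.17% of all genes, and 1 was higher (Gas6). The share of all genes for the higher one was 5.21%. Without replicate 1 these were 11 and 1, beside 15.3% and 8.13% of all genes. The lower count on the 75th percentile scale lay between 8 and 11 whichever array was left out. The list median was -0.20, beside 0.34 for all genes. Cx3cr1, the receptor for the neuronal chemokine fractalkine, read -3.29, -4.22 and -4.93 against -6.53, -7.62 and -7.97. Its fold change was -3.23 ± 0.23 (adjusted p = 0.000169), the same size without replicate 1 (-3.22 ± 0.25). LPS alone raised it by 1.35 ± 0.23 and curcumin alone stood at -2.19 ± 0.23 against the same controls.

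P2ry13, a purinergic receptor of ramified microglia, was well above background on every untreated array and on none with both agents, and was at least 6.09-fold lower (adjusted p = 0.000441). Gpr34, a lysophosphatidylserine receptor, was likewise at least 3.49-fold lower (adjusted p = 0.00300), with no call and a value of 0.10 after normexp background correction. Tmem119, a marker that separates microglia from other macrophages, read -1.68, -1.77 and -2.07 against -4.24, -3.54 and -3.33 (fold change -1.87 ± 0.26, adjusted p = 0.00246). P2ry6, the receptor for UDP that drives phagocytosis, read 2.03, 1.48 and 0.97 against 0.48, -2.63 and -0.99 (fold change -2.54 ± 0.52, adjusted p = 0.00834). Csf1r, the survival receptor of the lineage, read 4.46, 4.01 and 3.75 against 3.93, 3.89 and 4.16. Its difference of -0.08 ± 0.21 did not pass the test (adjusted p = 0.773), and the groups overlapped.

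**Figure D3:**
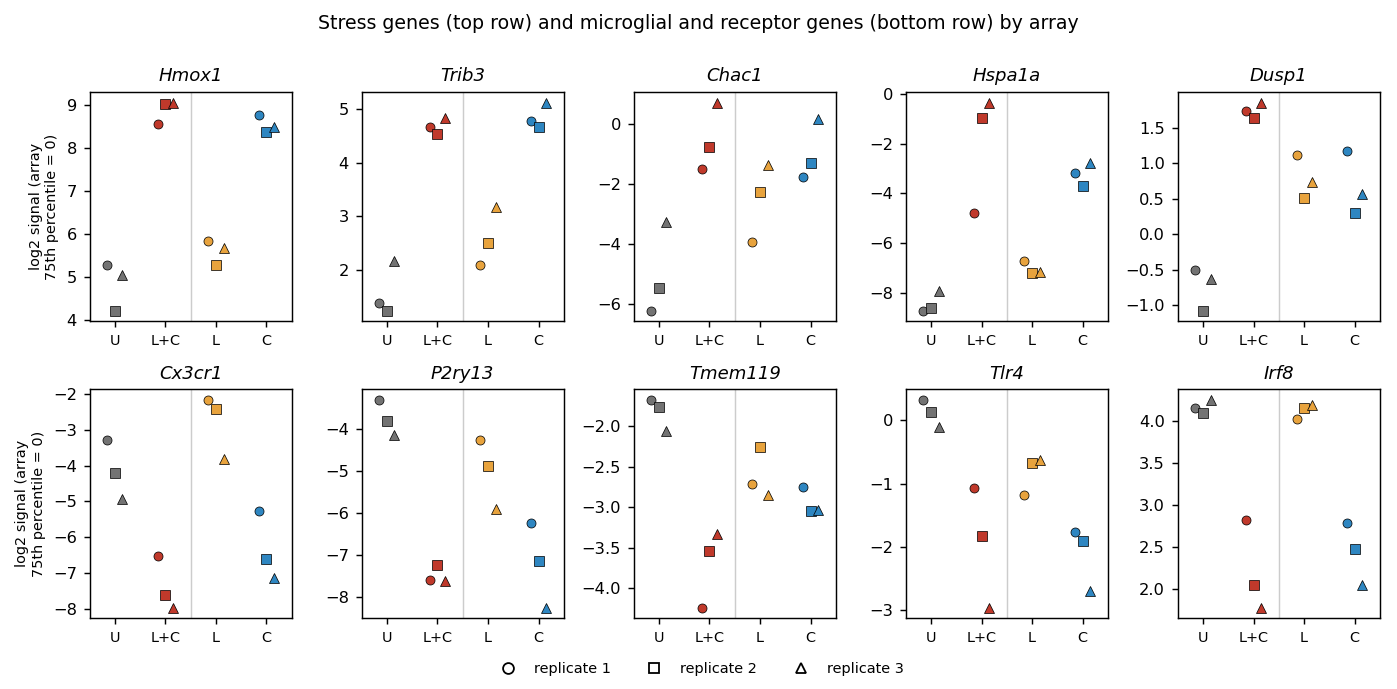
Each panel shows 1 gene with log2 signal relative to the array's 75th percentile for untreated (U), LPS+curcumin (L+C), LPS (L) and curcumin (C) cells; symbols mark replicates 1 to 3. In the top row the LPS+curcumin arrays lie above the untreated ones for all 5 stress genes, and in the bottom row below them for all 5 microglial and receptor genes. Of all 19319 genes, the groups lay apart with LPS+curcumin above in 4746 and below in 2017.

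Antigen presentation and costimulation changed in few members on every scaling. Of 17 antigen presentation genes, 2 were higher on all 5 scalings and none lower, beside 5.21% and 8.17% of all genes. On the 75th percentile scale 8 were higher, and 12 without replicate 1, beside 26.5% and 47.5% of all genes. H2-Q4 and H2-T23, class I genes of closely related families, rose by 0.89 ± 0.15 and 0.88 ± 0.16 (adjusted p = 0.00497 and 0.00579) but stood at -0.14 and -0.16 on the spike-in scale. The 2 higher ones were Ciita, the master activator of class II genes, at -7.06, -7.46 and -9.06 against -5.11, -3.49 and -2.83 (fold change 4.05 ± 0.65, adjusted p = 0.00392), and H2-DMa, which loads class II molecules, at -4.32, -4.98 and -4.34 against -2.52, -1.40 and -0.99 (fold change 2.91 ± 0.36, adjusted p = 0.00153). Of 10 costimulatory and checkpoint molecules 1 was higher and 2 were lower on all 5 scalings, with or without replicate 1. The shares of all genes were 5.21% and 8.17%, or 8.13% and 15.3% without replicate 1. Fas, a death receptor, read -3.48, -4.998 and -4.85 against 0.95, -1.05 and -1.39 and rose by 3.95 ± 0.39 (adjusted p = 0.000622). Vsir, the checkpoint ligand VISTA, read 1.87, 0.90 and 0.58 against -1.42, -1.69 and -1.42, with a fold change of -2.62 ± 0.34 (adjusted p = 0.00190). Havcr2, the checkpoint receptor TIM-3, differed by -0.67 ± 0.17 (adjusted p = 0.0192), a call lost without LPS+curcumin replicate 2 (adjusted p = 0.0942), untreated replicate 1 (0.0639) or untreated replicate 2 (0.0805).

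Most genes of the ATF4 stress response were higher. Of 24 tested members, 6 were higher on all 5 scalings (Chac1, Ddit3, Nupr1, Ppp1r15a, Sesn2 and Trib3) and none lower, and 19 were higher on the 75th percentile scale, beside 5.21% and 26.5% of all genes. Without replicate 1 the latter was 21, beside 47.5%, and without any other of the 6 arrays between 15 and 18. The median was 1.24, with 1.14, 1.42 and 1.25 on the 3 slides. Trib3, a pseudokinase induced by amino acid shortage, read 1.37, 1.24 and 2.16 against 4.67, 4.54 and 4.84, with the 3 treated arrays within a narrow range. It rose by 3.10 ± 0.20, or 8.55-fold (adjusted p = 0.000118). Chac1, which degrades glutathione, read -6.22, -5.46 and -3.29 against -1.50, -0.76 and 0.71 and rose by 4.47 ± 0.27 (adjusted p = 9.27e-05).

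Sesn2, a leucine sensor, read 0.74, 1.21 and 1.59 against 3.03, 4.08 and 4.36 and rose by 2.64 ± 0.25 (adjusted p = 0.000568). Ddit3, the apoptosis-linked factor CHOP, rose by 2.87 ± 0.25 (adjusted p = 0.000590), at 1.37 and 2.43 on LPS+curcumin replicates 1 and 3, with no value on replicate 2. Trib3 read 4.79, 4.67 and 5.13 with curcumin alone, beside the levels with both agents, and 2.10, 2.498 and 3.17 with LPS alone.

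Targets of NRF2 were higher by a count that depended on the scaling. Of 31 tested, 3 were higher on all 5 scalings (Hmox1, Slc7a11 and Sqstm1), beside 5.21% of all genes, while 18 were higher on the 75th percentile scale and 25 without replicate 1, beside 26.5% and 47.5%. The list median went from 0.76 to -0.28 on the spike-in scale, beside -0.69 for all genes. On the 75th percentile scale 12 were called without untreated replicate 2. Hmox1, haem oxygenase 1, read 5.29, 4.23 and 5.05 against 8.56, 9.02 and 9.06 and rose by 4.02 ± 0.26, or 16.3-fold (adjusted p = 0.000118). Sqstm1, the autophagy receptor p62, read 6.29, 5.66 and 5.82 against 8.10, 8.18 and 8.43 and rose by 2.31 ± 0.20 (adjusted p = 0.000426). Blvrb, a biliverdin reductase, and Slc48a1, a haem transporter, rose by 1.23 ± 0.20 and 1.54 ± 0.18 (adjusted p = 0.00381 and 0.00117). Nqo1, a quinone reductase, read -4.89, -3.72 and -3.43 against -1.81, -2.38 and -2.42 and rose by 1.81 ± 0.36 (adjusted p = 0.00772), but was -0.07 on the spike-in scale without replicate 1. Txnrd1, thioredoxin reductase, read 5.68, 5.43 and 5.68 against 7.20, 7.08 and 6.94 and rose by 1.47 ± 0.16 (adjusted p = 0.00100), but not every scaling called it.

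Of 25 heat shock genes tested, 2 were higher on all 5 scalings and none lower, beside 5.21% of all genes for the higher ones, both inducible Hsp70 genes. Hspa1a was not well above background on any untreated array and read -4.78, -0.97 and -0.34 with both agents, lowest on replicate 1, which makes it at least 41.3-fold higher (adjusted p = 0.00190). Hspa1b, its near-identical neighbour whose probe may share signal with it, was at least 8.05-fold higher (adjusted p = 0.00530). On the 75th percentile scale 11 members were higher, beside 26.5% of all genes, 18 without LPS+curcumin replicate 1, beside 47.5%, 6 without its replicate 3, and 4 without its replicate 2 or without untreated replicate 2 or 3. Hsf2, a heat shock factor, and Hspa4l, a chaperone of the Hsp110 group, rose by 0.97 ± 0.19 and 0.88 ± 0.17 (adjusted p = 0.00786 and 0.00704), but stood at -0.06 and -0.16 on the spike-in scale. Within slides the list median was 0.07, 0.71 and 1.11.

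Of 18 endoplasmic reticulum chaperones and sensors, 9 were higher on the 75th percentile scale, beside 26.5% of all genes, and 0 on all 5 scalings. There were 13 higher without replicate 1, beside 47.5%, 2 without LPS+curcumin replicate 2 or untreated replicate 2 or 3 and 5 without LPS+curcumin replicate 3. Hspa5, the chaperone BiP, read 5.64, 5.62 and 5.90 against 6.72, 7.11 and 7.07 and rose by 1.25 ± 0.15 (adjusted p = 0.00153), but stood at -0.02 on the spike-in scale without replicate 1. Derl1 and Dnajb9, which serve protein degradation and folding there, rose by 1.13 ± 0.28 and 1.02 ± 0.27 (adjusted p = 0.0163 and 0.0207), with Dnajb9 at -0.02 on the spike-in scale. Ern1, the stress sensor IRE1α, read -1.48, -1.78 and -1.85 against -0.66, -0.08 and -0.20 and rose by 1.39 ± 0.21 (adjusted p = 0.00325).

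Of 20 SOCS and MAP kinase phosphatase genes, 4 were higher (Dusp1, Dusp4, Dusp8 and Dusp16) and 2 lower (Dusp6 and Socs5) on all 5 scalings, beside 5.21% and 8.17% of all genes. Without replicate 1 these were 4 and 3, beside 8.13% and 15.3%, so the lower count was near the background share. Dusp1, which switches off p38 and JNK, read -0.50, -1.07 and -0.63 against 1.73, 1.63 and 1.85 and rose by 2.47 ± 0.18 (adjusted p = 0.000220), above LPS alone by 0.95 ± 0.18 (adjusted p = 0.00844). Dusp8 was not well above background in untreated cells and was at least 23.8-fold higher (adjusted p = 0.000438), at -4.49, -2.19 and -1.80 with both agents. Dusp16, a JNK phosphatase, read -5.18, -5.35 and -4.65 against -3.66, 0.49 and 1.58 and rose by 4.53 ± 0.93 (adjusted p = 0.00879), or 6.07 ± 0.31 without replicate 1, which lay much nearer the untreated arrays.

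Dusp6, which acts on ERK, read 3.05, 2.53 and 2.95 against 1.57, 0.77 and 0.05, with a fold change of -2.05 ± 0.29 (adjusted p = 0.00244). Dusp4 rose by 1.93 ± 0.22 (adjusted p = 0.00117). Of 22 immediate early factors, 4 were higher (Atf3, Btg2, Ier3 and Nr4a2) and 4 lower (Fos, Ier2, Klf4 and Nr4a1) on all 5 scalings, beside the same shares of 5.21% and 8.17%. Atf3, a stress-induced repressor, read 3.81, 3.21 and 3.43 against 5.68, 5.93 and 6.66 and rose by 2.61 ± 0.30 (adjusted p = 0.00117). Fos, a subunit of AP-1, read -1.02, -1.68 and -1.99 against -3.52, -3.06 and -3.90, with a fold change of -1.93 ± 0.22 (adjusted p = 0.00117). Maff and Ier3 rose by 1.80 ± 0.22 and 1.89 ± 0.24 (adjusted p = 0.00141 and 0.00172), Maff not on every scaling.

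Of 18 p53 targets, 3 were higher (Btg2, Fas and Gadd45a) and 2 lower (Phlda3 and Sesn1) on all 5 scalings, beside 5.21% and 8.17% of all genes. By the 75th percentile 10 and 2 were called, beside 26.5% and 8.69%, where the higher count was 6 without LPS+curcumin replicate 2 or untreated replicate 2. Cdkn1a, the cell cycle inhibitor p21, read 0.84, 0.62 and 1.09 against 3.07, 2.48 and 2.59 and rose by 1.87 ± 0.19 (adjusted p = 0.000745), though not on all 5 scalings. Gadd45a, a growth arrest gene, read -0.77, -1.39 and -1.12 against 0.91, 0.84 and 0.80 and rose by 1.94 ± 0.18 (adjusted p = 0.000475). Sesn1, the sestrin under p53 control, read 3.49, 3.01 and 2.36 against 1.53, 1.29 and 0.43, with a fold change of -1.86 ± 0.18 (adjusted p = 0.000580), opposite to Sesn2.

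Of 28 DNA replication genes 1 was lower (Ccne1, the cyclin E1 gene, -1.097 ± 0.23, adjusted p = 0.0106, or 0.0522 without untreated replicate 3) and none higher on all 5 scalings, and of 25 mitosis genes 4 were lower (Aurkb, Ccna2, Kif11 and Ttk) and none higher, lower counts that stand beside 8.17% of all genes. On the 75th percentile scale without LPS+curcumin replicate 1, 10 replication genes were higher and 1 lower, and 2 mitosis genes were higher and 6 lower, beside 47.5% and 15.4% of all genes. Without LPS+curcumin replicate 2 or untreated replicate 2, none of the mitosis genes was called lower on the 75th percentile scale. Of 16 BCL2 family members only Bmf, a pro-apoptotic member, was lower on all 5 scalings, beside 8.17% of all genes. It read -1.40, -1.05 and -2.59 against -4.16, -4.30 and -4.52 (fold change -2.64 ± 0.41, adjusted p = 0.00342), and the probes of Bmf were called in both directions. Bbc3, the pro-apoptotic PUMA, rose by 1.42 ± 0.28 (adjusted p = 0.00942), Bcl2a1b, an anti-apoptotic gene with near-identical copies, by 1.78 ± 0.43 (adjusted p = 0.0151), and Bik by 1.01 ± 0.23 (adjusted p = 0.0119), none of them called on every scaling. Without replicate 1 there were 5 higher and 5 lower members of the family, beside 47.5% and 15.4% of all genes.

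Of 21 genes of cholesterol synthesis and uptake, 4 were lower on all 5 scalings (among them Hmgcs1, Msmo1 and Stard4) and none higher, beside 8.17% and 5.21% of all genes. Calls by the 75th percentile were 2 higher and 4 lower, beside 26.5% and 8.69% of all genes. Without replicate 1 they were 8 and 4, beside 47.5% and 15.4%. The lower count there was 1 without LPS+curcumin replicate 2 or untreated replicate 2. Hmgcs1, which feeds the mevalonate pathway, read 4.12, 4.07 and 3.91 against 3.01, 2.10 and 1.03, with a fold change of -1.98 ± 0.34 (adjusted p = 0.00479). Insig1, which restrains sterol synthesis, rose by 1.21 ± 0.29 (adjusted p = 0.0153), though not on every scaling. Msmo1 and Stard4 differed by -0.79 ± 0.20 and -1.05 ± 0.22 (adjusted p = 0.0179 and 0.00992). Of 11 LXR targets 3 were lower (Abca1, Abcg1 and Mylip) and none higher on all 5 scalings, beside 8.17% and 5.21% of all genes. Abcg1, a cholesterol exporter, read 3.39, 2.81 and 2.30 against 2.08, 1.44 and 1.47 (fold change -1.17 ± 0.18, adjusted p = 0.00357), and Mylip, a ubiquitin ligase, read 1.81, 1.40 and 0.70 against 1.14, 0.58 and -0.76 with overlapping groups (fold change -0.98 ± 0.20, adjusted p = 0.00891). Abca1, another exporter, differed by -1.27 ± 0.36 (adjusted p = 0.0254). Vegfa, an angiogenic factor of the hypoxia list, read 1.30, 0.96 and 1.70 against 2.45, 3.37 and 3.88 and rose by 1.91 ± 0.24 (adjusted p = 0.00156). Mmp13, a collagenase, read -4.38, -5.60 and -4.97 against -1.37, -3.36 and -2.94 and rose by 2.42 ± 0.38 (adjusted p = 0.00354).

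**Figure D4:**
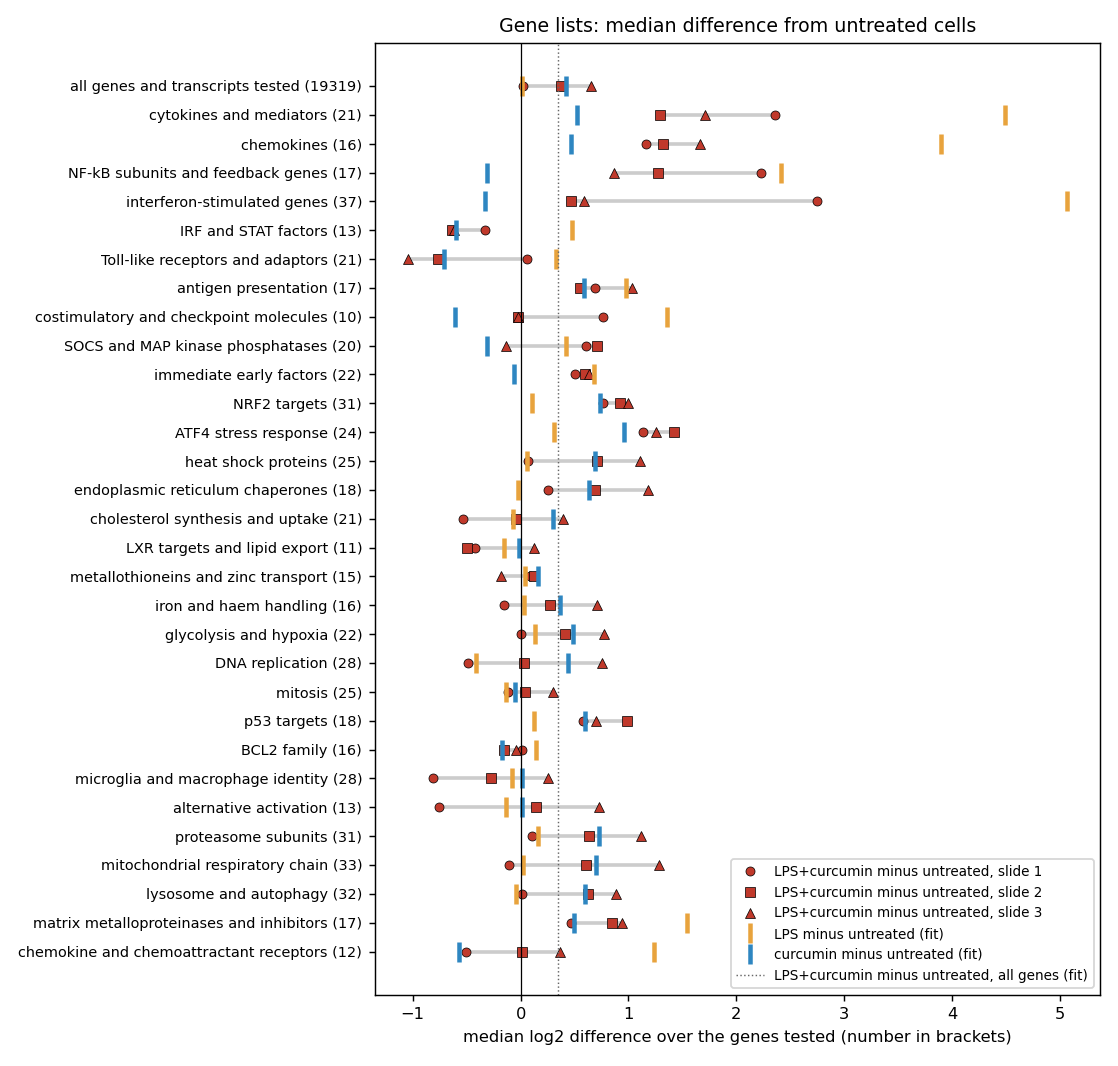
For each gene list, with the number of genes tested in brackets, red symbols give the median log2 difference between LPS+curcumin and untreated cells on slides 1, 2 and 3, and bars give the fitted medians for LPS alone (orange) and curcumin alone (blue) against the same untreated arrays. The interferon-stimulated genes reached 2.75 on slide 1 against 0.47 and 0.59 on the others, while the ATF4 list lay between 1.14 and 1.42 on all 3.

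Counts for housekeeping lists moved with the scaling and with replicate 1. Of 31 proteasome subunits 13 were higher on the 75th percentile scale and 30 without replicate 1, beside 26.5% and 47.5% of all genes, with 1 without LPS+curcumin replicate 2 and 0 on all 5 scalings. The list median was 0.62, against -0.41 on the spike-in scale. Of 33 respiratory chain subunits 2 were higher, 33 without replicate 1 and 0 on all 5 scalings. The subunits Ndufa1 and Cox4i1 were those called, at 0.90 ± 0.23 and 0.70 ± 0.24 (adjusted p = 0.0200 and 0.0489), and -0.14 and -0.33 on the spike-in scale. Psmd11, Psmd8, Psmd1 and Psma5 of the proteasome stood at 0.81, 0.89, 0.67 and 0.88, all called, and at -0.23, -0.15, -0.37 and -0.16 on the spike-in scale. Replicate 1 lay below both other treated arrays for all 33 respiratory chain subunits, beside 11572 of 19319 genes. Of 32 lysosome and autophagy genes 1 was higher (Sqstm1) and 1 lower on all 5 scalings, beside 5.21% and 8.17% of all genes. Atp6v1h, a subunit of the proton pump, Gabarapl1, an autophagosome protein, and Npc1, a cholesterol transporter, rose by 0.82 ± 0.16, 0.78 ± 0.17 and 0.60 ± 0.14, and stood at -0.22, -0.26 and -0.43 on the spike-in scale. Of 22 glycolysis and hypoxia genes 1 was higher (Vegfa) and 1 lower (Hk2, a hexokinase, -0.94 ± 0.22, adjusted p = 0.0134) on all 5 scalings, beside the same shares of 5.21% and 8.17%. The glycolytic genes Aldoa and Pgk1 rose by 0.81 ± 0.26 and 0.72 ± 0.22 (adjusted p = 0.0394 and 0.0348) but stood at -0.23 and -0.31 on the spike-in scale. Of 17 matrix metalloproteinases and inhibitors 1 was higher (Mmp13) and none lower on all 5 scalings, beside 5.21% and 8.17% of all genes. Mmp10 and Mmp2 rose by 1.74 ± 0.25 and 0.96 ± 0.22 (adjusted p = 0.00269 and 0.0121), with Mmp2 at -0.08 on the spike-in scale, and Mmp14 was at least 2.18-fold higher (adjusted p = 0.0139). Of 13 alternative activation genes, 16 iron and haem genes and 15 metallothionein and zinc genes 1 each was lower on all 5 scalings and none higher. The shares of all genes were 8.17% and 5.21%. Il10ra, a chain of the interleukin-10 receptor, differed by -1.69 ± 0.45 (adjusted p = 0.0210), Ncoa4, which delivers ferritin to lysosomes, by -0.94 ± 0.16 (adjusted p = 0.00454), and the nuclear receptor Ppard by 1.73 ± 0.25 (adjusted p = 0.00284). The metal transporters Slc39a14, Slc30a1, Slc39a7, Slc11a1 and Slc11a2 stood at 1.48, 1.13, 0.50, 0.56 and 0.75, all called. On the spike-in scale they stood at 0.44, 0.10, -0.54, -0.47 and -0.29. Mtf1, the metal-sensing factor, differed by -1.08 ± 0.34 (adjusted p = 0.0392), with its probes called in opposite directions. Arg1, the arginase of alternatively activated macrophages, read -4.87, -5.90 and -6.71 against -6.35, -5.70 and -5.32, and its difference of 0.03 ± 0.51 did not pass (adjusted p = 0.965).

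Several of the largest differences lay outside the lists. Baat, a bile acid conjugating enzyme of liver, was not well above background in untreated cells, read -2.84, 0.05 and 0.43 with both agents, and was at least 97.7-fold higher (adjusted p = 0.000171). Gramd1c, a sterol transporter, was at least 119.5-fold higher (adjusted p = 0.000590) at -2.51, 0.76 and 0.40. Hkdc1, a hexokinase, was at least 60.6-fold higher (adjusted p = 0.00590) at -6.01, 0.46 and 1.12, and Ampd1, the muscle AMP deaminase, at least 53.25-fold (adjusted p = 0.00469), with no value on replicate 2. In these genes replicate 1 was the lowest treated array. In curcumin alone Baat read -0.77, -0.22 and 0.29 and Gramd1c 0.73, 0.61 and 0.52.

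Among genes above background in both groups, Colec11, a soluble lectin, read -6.13, -6.22 and -6.34 against -2.90, 0.64 and 1.53 and rose by 5.98 ± 0.74 (adjusted p = 0.00155). Lin7b, a synaptic scaffold protein, read -5.30, -6.22 and -5.48 against -2.77, 1.57 and 1.48 and rose by 5.76 ± 0.91 (adjusted p = 0.00374). Hepacam, an adhesion molecule of glia and liver, read -5.83, -5.71 and -6.03 against -1.997, 0.03 and 0.50 and rose by 5.37 ± 0.43 (adjusted p = 0.000325). Tmem88, an inhibitor of Wnt signalling, read -5.40, -4.71 and -4.64 against -3.33, 0.56 and 1.48 and rose by 4.49 ± 0.84 (adjusted p = 0.00631). None of these 4 was called different from curcumin alone (adjusted p between 0.643 and 0.996). The uncharacterised genes 1300017J02Rik, 1110017D15Rik and 4930449I24Rik rose by 5.32 ± 0.65, 4.91 ± 0.58 and 4.80 ± 0.88.

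Without replicate 1 the genes with the largest rise included Cfap53, a cilium protein, Ifna12, a type I interferon, and Fgf18, a growth factor. With all arrays these rose by 4.74 ± 0.88, 4.49 ± 0.96 and 4.28 ± 0.91 (adjusted p = 0.00633, 0.0102 and 0.0100), and without replicate 1 by 6.22 ± 0.23, 6.10 ± 0.25 and 5.84 ± 0.16. The calls of Ifna12 and Fgf18 were lost without LPS+curcumin replicate 2 (adjusted p = 0.0537 and 0.0529). In the other direction Jrk, Pcdh7 and Gtpbp8 differed by -3.13 ± 0.41, -3.17 ± 0.37 and -3.48 ± 1.12 without replicate 1. With all arrays these were -2.25 ± 0.63, -2.23 ± 0.63 and -2.43 ± 1.13 (adjusted p = 0.0245, 0.0263 and 0.118), so Gtpbp8 was not called. Without LPS+curcumin replicate 2 they were -2.17, -2.08 and -0.50, none called, so the size of the Gtpbp8 difference rested on that array.

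Among the genes eligible for the ranking, the lowest fold changes after Gpr183 belonged to 9 more genes. Frmd4b read 0.84, 0.63 and 0.05 against -1.65, -3.15 and -5.30 (fold change -3.87 ± 0.52, adjusted p = 0.00203). Rin2, a guanine nucleotide exchange factor for Rab5, read 3.41, 3.31 and 2.76 against 0.96, -0.33 and -1.55 (fold change -3.47 ± 0.37, adjusted p = 0.000920). S1pr1, a receptor for sphingosine-1-phosphate, read -0.98, -1.40 and -2.10 against -3.02, -4.89 and -6.81 (fold change -3.41 ± 0.53, adjusted p = 0.00341). For Kctd12b, Gapt, Tmem51, St8sia4 and Nfam1 the fold changes were -3.80, -3.61, -3.51, -3.07 and -3.01, all called. Mblac2 read -0.36, -0.43 and -0.43 against -1.52, -7.00 and -2.02 (fold change -3.11 ± 1.04, adjusted p = 0.0460), a call lost without any 1 untreated array (adjusted p = 0.0704, 0.169 and 0.105 without replicates 1, 2 and 3). The rule that picked these 9 genes required the 3 treated arrays to lie below the 3 untreated ones. Kynu, Kcnab3 and Arhgap6 were not well above background with both agents and were at least 2.27-fold, 2.11-fold and 1.57-fold lower (adjusted p = 0.000438, 0.00955 and 0.00286), but stood at 0.41, 0.48 and 0.46 with no call after normexp background correction.

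**Figure D5:**
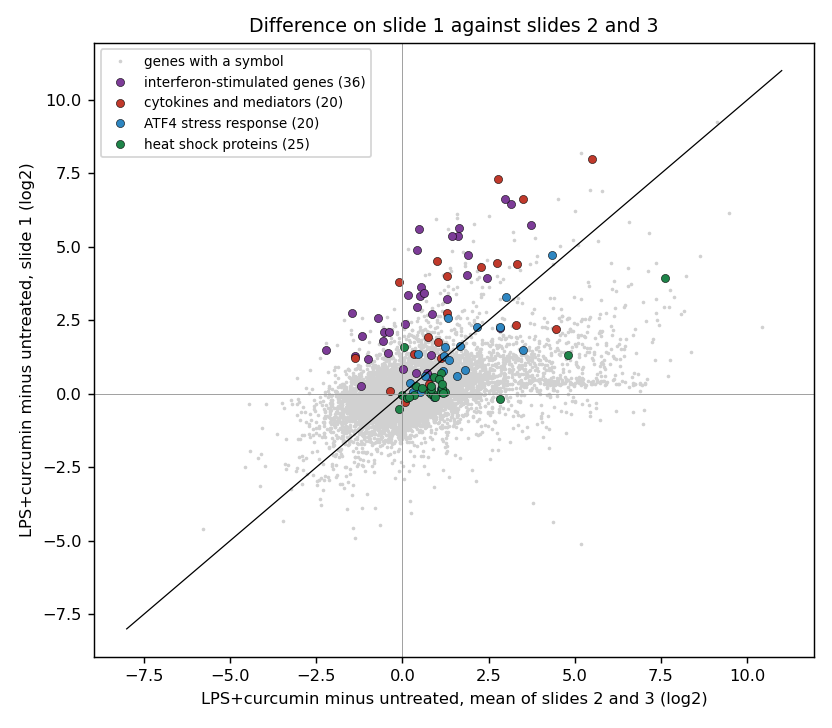
Each point is a gene with a symbol, placed by the log2 difference LPS+curcumin minus untreated as the mean of slides 2 and 3 (horizontal) and on slide 1 (vertical); coloured points are members of 4 lists with a value on every slide and the line marks equal differences. Most interferon-stimulated genes lie above the line, with a list median of 2.75 on slide 1, and most heat shock genes lie on or below it, with a list median of 0.07.

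Fewer genes were called between both agents and curcumin alone than between both agents and LPS alone; the 3 comparisons share the LPS+curcumin arrays. With LPS+curcumin, 65 genes (0.336%) were higher and 5 (0.0259%) lower than with curcumin, or 128 (0.663%) and 12 (0.0621%) without replicate 1. Against LPS, 4065 (21%) were higher and 1661 (8.6%) lower, or 9116 (47.2%) and 3097 (16%) without replicate 1. On all 5 scalings the shares were 0.16% and 0.0104% against curcumin and 5.83% and 7.49% against LPS. Without replicate 1 they were 0.264% and 0.0414% against curcumin and 9.89% and 15.7% against LPS. The 65 included Cxcl2 (adjusted p = 1.94e-05), Cxcl10 (6.64 ± 0.31), Acod1 (6.56 ± 0.74) and Ccl5 (5.86 ± 0.28). The 5 lower ones were Cxcr4, Prox2, Ercc5, Shpk and a transcript without a symbol, named here after their values were seen. By list, 9 of 17 NF-κB genes, 5 of 21 cytokines, 5 of 16 chemokines and 4 of 37 interferon-stimulated genes were higher than with curcumin. Of the stress lists, 2 of 25 heat shock genes and 1 of 31 NRF2 targets were higher than with curcumin in the fit without replicate 1.

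Some genes showed no called difference from LPS. Nfkbia differed from LPS by -0.17 ± 0.28 (adjusted p = 0.648), Nfkb2 by -0.17 ± 0.18 (0.466) and Cxcl2 by -0.84 ± 0.36 (0.0997). Il1b, Csf3 and Il6 lay furthest below LPS of the cytokines named, with differences of -7.09 ± 0.52, -6.21 ± 0.62 and -6.11 ± 0.87 (adjusted p = 0.000348, 0.000843 and 0.00294), although all 3 remained above untreated cells. Of 16 chemokines 12 were lower than with LPS, beside 8.6% of all genes. Hmox1 was above LPS by 3.27 ± 0.26 (adjusted p = 0.000466) and differed from curcumin by 0.33 ± 0.26 (adjusted p = 0.714).

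Some markers of other cell types were measured. Of 8 astrocyte, 8 neuron, 7 oligodendrocyte, 7 endothelial, 7 fibroblast and 8 lymphocyte markers with a probe, 1, 1, 4, 3, 1 and 4 were well above background on all untreated arrays, and 5, 5, 2, 2, 4 and 4 on none of the 6 arrays. Of the astrocyte, neuron, oligodendrocyte, endothelial, fibroblast and lymphocyte lists 1, 2, 4, 4, 2 and 4 members were tested. On the 75th percentile scale 1, 2, 0, 1, 1 and 4 of these were higher and, of the endothelial ones, 1 lower, beside 26.5% and 8.69% of all genes. On all 5 scalings only Pecam1 was higher and Kdr lower, beside 5.21% and 8.17% of all genes, and Kdr had overlapping groups. Pecam1 was at least 6.89-fold higher (adjusted p = 0.0101). The lymphocyte markers Cd3e, Cd4 and Cd79a rose by 1.16, 0.76 and 1.19, and stood at 0.12, -0.28 and 0.15 on the spike-in scale, and the lymphocyte list had a summed level of 0.0913 to 0.109 in untreated cells and 0.127 to 0.308 with both agents. S100b (astrocytes), Tubb3 and Rbfox3 (neurons) and Col1a2 (fibroblasts) rose by 1.07, 1.13, 1.31 and 1.06. Oligodendrocyte markers summed to 1.94 to 2.06 in untreated cells and 1.56 to 2.57 with both agents. The summed level of the endothelial markers was 31.0 to 33.8 in untreated cells and 17.9 to 77.6 with both agents, in units of the 75th percentile. For the microglial markers the sums were 230 to 364 and 278 to 490. Their part in the differences was not tested.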

How the data were processed

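RNA of BV-2 cells was hybridised to Agilent one-colour (Cy3) mouse arrays. The authors deposited Feature Extraction intensities, background-subtracted but not normalised between arrays, from version 10.5.1.1 per the file headers (9.1 per the submitters' processing notes). Control spots and outlier-flagged spots were left out, spots of a probe averaged, and log2 intensity of the deposited processed signal was set relative to each array's 75th percentile. The brightest probe stood for a gene. Only genes that the scanner marked as well above background on every array of 1 or more groups were tested. All 12 arrays were fitted with limma 3.58.1 (R 4.3.3), with 4 group means and the replicate number as a block, and p-values were adjusted by Benjamini-Hochberg over the 19319 genes and transcripts. Each slide held 1 array of each group at the same position, so position and group cannot be told apart. Deviations of same-numbered untreated and LPS+curcumin arrays correlated at 0.222, 0.193 and 0.0877 for replicates 1, 2 and 3. The block was kept because the file headers put same-numbered arrays on 1 slide. The number of arrays limits the precision.

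The 5 scalings were the 75th percentile, the quantile, the median, the spike-in controls and the probes always detected. Other alternatives were normexp background correction (on median signals), the deposited value table, other filters, the mean of probes, only 6 arrays, array weights, no or a random block, and arrays left out. Where every array of a group lay near background, the change is given as at least N-fold: the bright group's mean over, per dim array, the higher of the lowest detected signal and its own.

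Genes were named by rule: the 10 highest and 10 lowest called fold changes with groups apart, with and without LPS+curcumin replicate 1, the 5 highest bounds per direction, up to 4 called members per list by adjusted p, and 24 fixed genes, 164 in all. Others named, and the choice of which of the 164 are described at length, were made after their values were seen. Results of some genes are not reported here. The members and lists were chosen with earlier results of these data known. Promoter sequences are RefSeq windows of GRCm38.p6.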

Additional observations from a re-analysis of the deposited data

How the results depend on the processing

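Of the 164 genes taken by the rule, 162 are reported, of which 156 were called. Leaving out each of the 6 arrays in turn kept 106 of these 156 calls in every fit. The other 50 lost their call in at least 1 of those fits, namely Abca1, Aldoa, Aurkb, Bbc3, Bcl2a1b, Bik, Ccna2, Ccne1, Cd4, Cd79a, Col1a2, Cox4i1, Derl1, Dnajb9, Fgf18, Gabarapl1, Havcr2, Hk2, Ifna12, Il10ra, Insig1, Irf1, Irf5, Jrk, Kcnab3, Kdr, Kif11, Mblac2, Mmp14, Mmp2, Msmo1, Mtf1, Ndufa1, Nos2, Npc1, Pcdh7, Pecam1, Pgk1, Psma5, Psmd1, Psmd8, Ptgs2, Rbfox3, S100b, Slc11a1, Slc30a1, Slc39a7, Stard4, Ttk and Tubb3. In at least 1 alternative 35 of the 156 changed sign. Normexp background correction kept 31 of the 156 calls and turned 5, and only the 6 arrays compared kept 83. Array weights kept 155, but LPS+curcumin replicates 1, 2 and 3 had weights of 0.0805, 4.21 and 0.137, so replicate 2 dominated that group. The deposited value table kept all 156, but differed from the processed signal by at most 0.397%, so it was no separate check. Leaving out replicate 1, 2 or 3 of all groups kept 150, 9 and 92. The cause was not tested.

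Of all 6796 calls (5118 higher, 1678 lower), normexp background correction left 64 (48 and 16), only the 6 arrays compared 861 (706 and 155; on all 5 scalings 2 and 1), and leaving out replicate 2 of all groups 19 (18 and 1) or replicate 3 of all groups 1416 (989 and 427). Leaving out replicate 1 of all groups gave 10199 (7851 higher). No filter on dim probes gave 15215 (13574 higher) and array weights 12426 (9069 and 3357). Quantile scaling gave 2244 higher and 2703 lower, median scaling 1731 and 7535, and spike-in scaling 1277 and 8381. Without LPS+curcumin replicate 1, the higher and lower counts were 2210 and 9509 of 11719 on the median scale and 1668 and 10552 of 12220 on the spike-in scale. They were 8101 and 3643 of 11744 on the scale of always-detected probes, and 4863 were lower after quantile scaling. Leaving out 1 array gave 2553 to 12150 calls, of which 1931 to 9167 higher and 622 to 2983 lower; on all 5 scalings 303 to 1571 were higher and 472 to 2963 lower. The total was 12150 without LPS+curcumin replicate 1, and without untreated replicate 2, 2553. With no replicate block 4877 genes were called, 3707 higher and 1170 lower, and 135 of the 156 named calls were kept. With no replicate block and without LPS+curcumin replicate 1, 10773 were called (8183 and 2590). The best-correlated partner of an array carried its own number for replicates 1 and 2 but not 3.

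Named genes that changed sign did so as follows. Without LPS+curcumin replicate 1, Slc39a7, Slc11a1, Npc1, Ccl2 and Irf7 were called lower on the median and spike-in scales. Gabarapl1 and Irf1 were then called lower on the spike-in scale. With the mean of all probes the log2 fold change was Mtf1 0.081 and Kif11 0.010. After normexp background correction the log2 fold change was Gpr34 0.10, Kynu 0.41, Kcnab3 0.48, Arhgap6 0.46 and Ticam2 0.27. After quantile scaling the log2 fold change was Slc39a7 -0.010, Cox4i1 -0.035 and Cd4 -0.077. On the median scale the log2 fold change was Slc39a7 -0.31, Slc11a2 -0.059, Slc11a1 -0.25, Pgk1 -0.086, Aldoa -0.0028, Psmd11 -0.0029, Psmd1 -0.14, Cox4i1 -0.11, Gabarapl1 -0.029, Npc1 -0.20 and Cd4 -0.051. On the spike-in scale the log2 fold change was H2-Q4 -0.14, H2-T23 -0.16, Hspa4l -0.16, Hsf2 -0.061, Dnajb9 -0.018, Slc39a7 -0.54, Slc11a2 -0.29, Slc11a1 -0.47, Pgk1 -0.31, Aldoa -0.23, Bik -0.025, Psmd11 -0.23, Psmd8 -0.15, Psmd1 -0.37, Psma5 -0.16, Ndufa1 -0.14, Cox4i1 -0.33, Atp6v1h -0.22, Gabarapl1 -0.26, Npc1 -0.43, Mmp2 -0.080 and Cd4 -0.28. After quantile scaling, leaving out LPS+curcumin replicate 1, the log2 fold change was Slc39a7 -0.10, Pgk1 -0.025, Bik -0.33, Psmd11 -0.092, Cox4i1 -0.076, Gabarapl1 -0.036, Mmp2 -0.19 and Cd4 -0.021. On the median scale, leaving out LPS+curcumin replicate 1, the log2 fold change was H2-Q4 -0.090, H2-T23 -0.15, Hspa4l -0.031, Dnajb9 -0.21, Slc39a7 -0.43, Slc30a1 -0.34, Slc11a2 -0.23, Slc11a1 -0.41, Pgk1 -0.060, Bik -0.22, Psmd11 -0.37, Psmd1 -0.24, Cox4i1 -0.082, Atp6v1h -0.30, Gabarapl1 -0.35, Npc1 -0.44, Ccl2 -1.14, Irf1 -0.48 and Irf7 -0.60. On the spike-in scale, leaving out LPS+curcumin replicate 1, the log2 fold change was H2-Q4 -0.36, H2-T23 -0.42, Hspa4l -0.30, Hsf2 -0.18, Hspa5 -0.016, Dnajb9 -0.48, Slc39a7 -0.71, Slc30a1 -0.62, Slc11a2 -0.50, Slc11a1 -0.69, Pgk1 -0.33, Aldoa -0.22, Bik -0.49, Bcl2a1b -0.14, Psmd11 -0.64, Psmd8 -0.22, Psmd1 -0.52, Psma5 -0.18, Ndufa1 -0.17, Cox4i1 -0.36, Atp6v1h -0.57, Gabarapl1 -0.62, Npc1 -0.71, Mmp2 -0.17, Cd4 -0.26, Ptgs2 -0.22, Ccl2 -1.41, Irf1 -0.75, Irf7 -0.87 and Nqo1 -0.070.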
